A study of Homo sapiens with 12 samples.

Results

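The beta-tubulin isotypes are the 7 genes TUBB, TUBB2A, TUBB2B, TUBB3, TUBB4A, TUBB4B and TUBB6, found in the expression table by the Ensembl identifier that belongs to each symbol. All 7 are among the 20308 genes listed, and 6 of them entered the test, which took genes whose FPKM averaged 0.5 or more across the inputs. FPKM scales sequenced fragments to transcript length and to the fragments mapped, so levels of different genes can be set side by side. Beta-tubulin forms a heterodimer with alpha-tubulin, and the dimers polymerise into microtubules, which build the mitotic spindle and carry intracellular transport. The isotypes are nearly alike in the body of the protein and differ mainly in the acidic tail at the C terminus. TUBB and TUBB4B are made in most tissues, whereas TUBB2A, TUBB2B, TUBB3 and TUBB4A are abundant in neurons. Taxanes such as docetaxel, a standard drug in prostate cancer, bind beta-tubulin within the microtubule, and TUBB3 in particular has been studied in tumours that tolerate taxanes.

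RNA was measured in C4-2, a widely used cell line of castration-resistant prostate cancer. The NC group carried an empty vector and the oeALKBH5 group an ALKBH5 overexpression construct; the labels give the treatment of both as none, and no drug is named. ALKBH5 is a demethylase of N6-methyladenosine (m6A) in RNA, and the title of the series asks about docetaxel resistance. Each group had 3 input libraries of ribosome-depleted RNA and 3 libraries from an m6A pull-down, 12 samples in all, and only the 6 input libraries are compared here. The vector's promoter, and whether the cells were a pool or a clone, are not given in the sources used here. Nothing in the labels says that replicates were separate cultures, so the spread behind each p-value is that between libraries and may be technical.

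The input libraries summed to 511333 to 524905 FPKM. Absolute depth is unknown, and relative depth, estimated from whole-read steps among low genes, ran from 0.783 in oeALKBH5 replicate 2 to 1.13 in NC replicate 2, with NC replicate 1 as the unit. ALKBH5 itself had 61.4 ± 3.39 FPKM in NC and 75.7 ± 4.05 FPKM in oeALKBH5 (mean ± SD, n = 3 per group); all 3 oeALKBH5 libraries were above all 3 NC libraries, but the difference of 0.30 on the log2(FPKM + 1) scale was not called (limma adjusted p = 0.114). All 11 prostate luminal markers were present, with sums of 2618 to 2656 FPKM in NC and 2613 to 2876 FPKM in oeALKBH5.

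TUBB3 and TUBB4A, both low in NC, rose more than 3-fold in oeALKBH5, and TUBB4B, the second most abundant isotype, fell. Summed with its neighbour gene MC1R, TUBB3 had a log2 difference of 0.60 and was not called (limma adjusted p = 0.0977). TUBB, the most abundant isotype, had lower values in every oeALKBH5 library without passing the test, TUBB2A and TUBB6 overlapped between the groups, and TUBB2B was at or near 0. Of the 6 isotypes tested, 2 were called higher, 1 was called lower and 3 were not called at a limma adjusted p of 0.05. Over all 12757 genes tested, 5.45% were called in either direction, 3.02% higher and 2.43% lower. The groups did not overlap in 4 of the 6 isotypes, against 28.1% of all genes tested. The median difference of the 6 isotypes was 0.0043 on the log2 scale and that of all tested genes was 0.02.

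**Figure D1:**
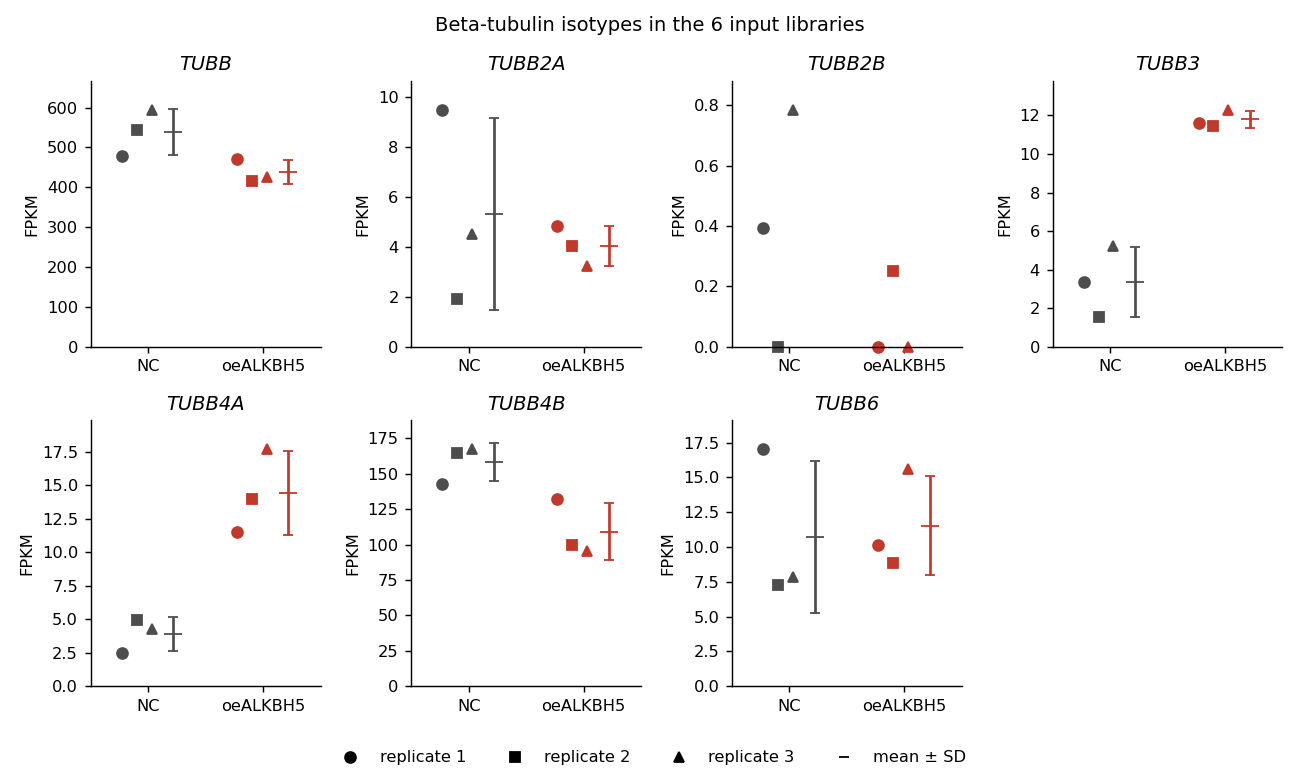
FPKM of each beta-tubulin isotype (vertical axis, linear, from 0) in the 6 input libraries; grey points are NC, red points are oeALKBH5, the shape gives the replicate and the bar the mean ± SD of 3 libraries, left out for TUBB2B, which is listed at 0 in 3 libraries. TUBB3 and TUBB4A lie between 1.55 and 5.21 FPKM in NC and between 11.5 and 17.7 FPKM in oeALKBH5, and TUBB and TUBB4B lie lower in oeALKBH5.

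TUBB3 (ENSG00000258947), the neuronal class III isotype, had 3.34, 1.55 and 5.21 FPKM in NC replicates 1, 2 and 3 and 11.6, 11.5 and 12.3 FPKM in oeALKBH5 replicates 1, 2 and 3. The 3 oeALKBH5 libraries lay close together, more than 2-fold above the highest NC library, whereas the NC libraries spread widely. The mean went from 3.37 ± 1.83 to 11.8 ± 0.443 FPKM, a ratio of 3.51. On the log2(FPKM + 1) scale, where the added 1 shrinks differences at low FPKM, TUBB3 rose by 1.64 (SE 0.32, 95% interval 0.92 to 2.36, limma adjusted p = 0.0232). By size of the log2 difference it stood at place 88 from the top of the 12757 tested genes. The limma adjusted p passed 0.05 without NC replicate 1 (0.0591) and without oeALKBH5 replicate 1 (0.0652), 2 (0.0644) or 3 (0.0754), and it was 0.0791 with no filter on low values and 0.0571 without the intensity trend, in each case with a log2 difference of at least 1.62.

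TUBB4A (ENSG00000104833), which is most abundant in brain, had 2.46, 4.93 and 4.29 FPKM in the NC replicates and 11.5, 14.0 and 17.7 FPKM in the oeALKBH5 replicates. Every oeALKBH5 library was more than 2-fold above every NC library. The mean went from 3.89 ± 1.28 to 14.4 ± 3.11 FPKM, a ratio of 3.70. TUBB4A rose by 1.67 on the log2(FPKM + 1) scale (SE 0.27, 95% interval 1.07 to 2.28, limma adjusted p = 0.0105), place 80 from the top. The call was kept in all 14 alternative fits of this gene, with limma adjusted p from 0.0102 to 0.0472.

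TUBB2A (ENSG00000137267) and TUBB2B (ENSG00000137285), the other isotypes known from neurons, did not show this difference. TUBB2A had 9.51, 1.94 and 4.51 FPKM in NC and 4.85, 4.04 and 3.23 FPKM in oeALKBH5. All 3 oeALKBH5 values lay inside the NC range, and NC replicate 1 was the highest of the 6. The log2 difference of TUBB2A was -0.15 (SE 0.43, 95% interval -1.12 to 0.82, limma adjusted p = 0.879), and without NC replicate 1 it was 0.31 (limma adjusted p = 0.686). TUBB2B was listed at 0.393, 0 and 0.786 FPKM in NC and at 0, 0.251 and 0 FPKM in oeALKBH5, under the filter, and was not tested. The 2 genes are neighbours and near-identical copies, so the split of reads between them is uncertain; summed, they had 9.91, 1.94 and 5.30 FPKM in NC and 4.85, 4.29 and 3.23 FPKM in oeALKBH5, again overlapping.

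TUBB (ENSG00000196230), the main isotype of dividing cells, had 478, 544 and 595 FPKM in NC and 472, 415 and 426 FPKM in oeALKBH5. The highest oeALKBH5 library lay just under the lowest NC library, replicate 1 in both cases. The mean was 539 ± 58.5 FPKM in NC and 437 ± 30.2 FPKM in oeALKBH5. The log2 difference of -0.30 (SE 0.088, 95% interval -0.50 to -0.10) was not called (limma adjusted p = 0.0918). Without NC replicate 1 it was -0.38 and was called (limma adjusted p = 0.0495), and the limma adjusted p over all alternatives ran up to 0.285.

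TUBB4B (ENSG00000188229), the other broadly expressed isotype and a component of spindle and cilia, had 143, 165 and 168 FPKM in NC and 132, 99.7 and 95.5 FPKM in oeALKBH5. As with TUBB, the groups did not overlap and came closest in replicate 1. The mean went from 158 ± 13.5 to 109 ± 20.3 FPKM, so the NC level was 1.45 times the oeALKBH5 level. TUBB4B fell by 0.55 on the log2(FPKM + 1) scale (SE 0.13, 95% interval -0.84 to -0.25, limma adjusted p = 0.0489). The call lay at the threshold and was lost without NC replicate 1 (limma adjusted p = 0.0711), NC replicate 2 (0.133), NC replicate 3 (0.166), oeALKBH5 replicate 2 (0.127) or oeALKBH5 replicate 3 (0.138), and kept without oeALKBH5 replicate 1 (0.0167). It was also lost with a pseudocount of 0.1 (limma adjusted p = 0.0510), quantile normalization (0.0659), no filter on low values (0.119), a replicate block (0.114) or no intensity trend (0.148), with log2 differences of -0.46 to -0.69 over all alternatives. In RefSeq TUBB4B overlaps CIMIP2A, and the part of shared reads in the TUBB4B value was not tested.

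TUBB6 (ENSG00000176014), an isotype found at low level in many non-neuronal cells, had 17.0, 7.24 and 7.85 FPKM in NC and 10.2, 8.88 and 15.6 FPKM in oeALKBH5. The groups overlapped, with the highest library in NC and the next highest in oeALKBH5. The log2 difference was 0.16 (SE 0.33, 95% interval -0.59 to 0.91, limma adjusted p = 0.826). Its sign was not stable: it was -0.06 when oeALKBH5 replicate 3 was left out, -0.05 when NC replicate 2 was and 0.52 when NC replicate 1 was, none of them called (limma adjusted p from 0.359 to 0.997 over all alternatives). In RefSeq the gene overlaps AFG3L2, which encodes a subunit of a mitochondrial protease and went from 60.2 ± 4.10 to 43.8 ± 2.97 FPKM (log2 difference -0.45, limma adjusted p = 0.0480, and 0.0811 to 0.147 without any 1 of the 6 libraries), and whether the counting used strand is not given in the sources used here.

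An exact two-sided permutation test on the log2(FPKM + 1) of each gene, over the 20 ways to assign 3 of 6 libraries, gave p = 0.1 for TUBB, TUBB3, TUBB4A and TUBB4B, the smallest that 3 libraries against 3 can reach. The same exact permutation test gave p = 0.8 for TUBB2A, 0.6 for TUBB6 and 0.4 for TUBB2B.

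The promoters of the called isotypes are shown because TUBB3 and TUBB4A rose together while TUBB4B fell. RefSeq windows of 300 bases (GRCh38.p14, 250 bases before to 50 after the transcript start) were matched by symbol for all 7 isotypes; where a gene had several starts, the window with the most CG dinucleotides is given. They are printed 5′ to 3′ on the gene's strand in lower case, with matches to TATAA or CCAAT, on either strand, in capitals. The TUBB3 window lies at chr16:89923092-89923391 on the plus strand, the TUBB4A window at chr19:6502260-6502559 on the minus strand and the TUBB4B window at chr9:137241037-137241336 on the plus strand.
TUBB3: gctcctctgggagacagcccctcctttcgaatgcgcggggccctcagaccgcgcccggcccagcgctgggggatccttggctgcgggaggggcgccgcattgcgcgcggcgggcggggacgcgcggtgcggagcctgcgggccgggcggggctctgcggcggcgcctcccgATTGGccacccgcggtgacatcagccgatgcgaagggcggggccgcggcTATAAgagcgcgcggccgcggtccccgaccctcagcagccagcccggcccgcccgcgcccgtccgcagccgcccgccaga
TUBB4A: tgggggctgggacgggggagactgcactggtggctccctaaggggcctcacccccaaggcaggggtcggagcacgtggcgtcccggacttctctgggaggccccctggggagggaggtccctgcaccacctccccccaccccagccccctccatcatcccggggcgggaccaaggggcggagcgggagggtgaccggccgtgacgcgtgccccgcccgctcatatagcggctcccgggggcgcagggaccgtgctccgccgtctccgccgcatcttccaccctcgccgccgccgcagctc
TUBB4B: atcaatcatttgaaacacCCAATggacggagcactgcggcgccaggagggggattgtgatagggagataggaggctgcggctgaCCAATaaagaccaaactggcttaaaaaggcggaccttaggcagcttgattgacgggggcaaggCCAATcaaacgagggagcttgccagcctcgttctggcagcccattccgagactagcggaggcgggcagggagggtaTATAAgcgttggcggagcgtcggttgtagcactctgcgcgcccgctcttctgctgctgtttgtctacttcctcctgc

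The printed TUBB3 and TUBB4A windows are, by that choice, the CG-richer of 2 each, so their G and C content is not compared with other promoters. They held 79.0% and 75.0% G and C with 47 and 27 CG dinucleotides, whereas the windows at the other starts held 65.3% with 9 (TUBB3) and 54.7% with 5 (TUBB4A). TUBB4B has 1 window, with 57.3% G and C and 18 CG dinucleotides. The printed TUBB3 window held 1 TATAA match beginning 30 bases before the start, 1 CCAAT match and 5 matches to GGGCGG, the core letters bound by SP1, and the other TUBB3 window held none of the 3 motifs. The printed TUBB4A window held neither TATAA nor CCAAT, but 3 matches to GGGCGG and 2 to ACGTG, and the other TUBB4A window held 2 CCAAT matches, 1 to GGGCGG and 0 to TATAA or ACGTG. TUBB4B held a TATAA match beginning 27 bases before the start and 3 CCAAT matches, and 0 to GGGCGG. Which letters a gene shares with another therefore depends on the start that is used in these cells, which these data do not give. Searched on both strands, TATAA occurred in 20.4% of all windows, CCAAT in 34.6%, GGGCGG in 45.0% and ACGTG in 21.4%. The isotype TUBB2A, which was not called, has 1 window. It too held a TATAA match beginning 30 bases before the start and 5 matches to GGGCGG, but 0 to CCAAT. No window of TUBB, TUBB2B or TUBB6 held TATAA. Only exact matches were searched, so near variants of TATAA or the other motifs were not counted. All these matches describe letters and were not tested for binding.

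The beta-tubulin mRNA pool was smaller in oeALKBH5 and its make-up differed. The 7 isotypes summed to 654, 724 and 785 FPKM in NC and to 642, 553 and 570.0 FPKM in oeALKBH5. All oeALKBH5 sums were under all NC sums, by a narrow margin in replicate 1, and the mean went from 721 ± 65.7 to 588 ± 47.4 FPKM, a ratio of 0.816. TUBB and TUBB4B together made up 96.6 ± 1.48% of the pool in NC and 92.8 ± 1.32% in oeALKBH5. TUBB3 and TUBB4A together made up 0.887, 0.894 and 1.21% of the pool in the NC libraries and 3.61, 4.60 and 5.27% in the oeALKBH5 libraries. The lowest oeALKBH5 share of this pair was thus well above the highest NC share, yet the pair stayed a small part of the pool next to TUBB. In a bulk sample, fewer cells that make a transcript and less transcript per cell cannot be told apart.

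The share of TUBB was 74.7 ± 1.37% in NC and 74.4 ± 0.830% in oeALKBH5 and overlapped between the groups. The share of TUBB4B was 21.9, 22.8 and 21.3% in NC and 20.6, 18.0 and 16.7% in oeALKBH5, with no overlap, and its ratio to TUBB went from 0.295 ± 0.0113 to 0.248 ± 0.0292. TUBB3 alone went from 0.463 ± 0.229 to 2.02 ± 0.181% and TUBB4A alone from 0.534 ± 0.153 to 2.48 ± 0.657%. The ratio of TUBB3 to TUBB4A was 1.36, 0.314 and 1.22 in NC and 1.01, 0.822 and 0.695 in oeALKBH5, so the balance of this pair overlapped between the groups. The shares of TUBB6 (1.54 ± 0.928% and 1.97 ± 0.657%) and TUBB2A (0.765 ± 0.616% and 0.684 ± 0.103%) overlapped too.

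**Figure D2:**
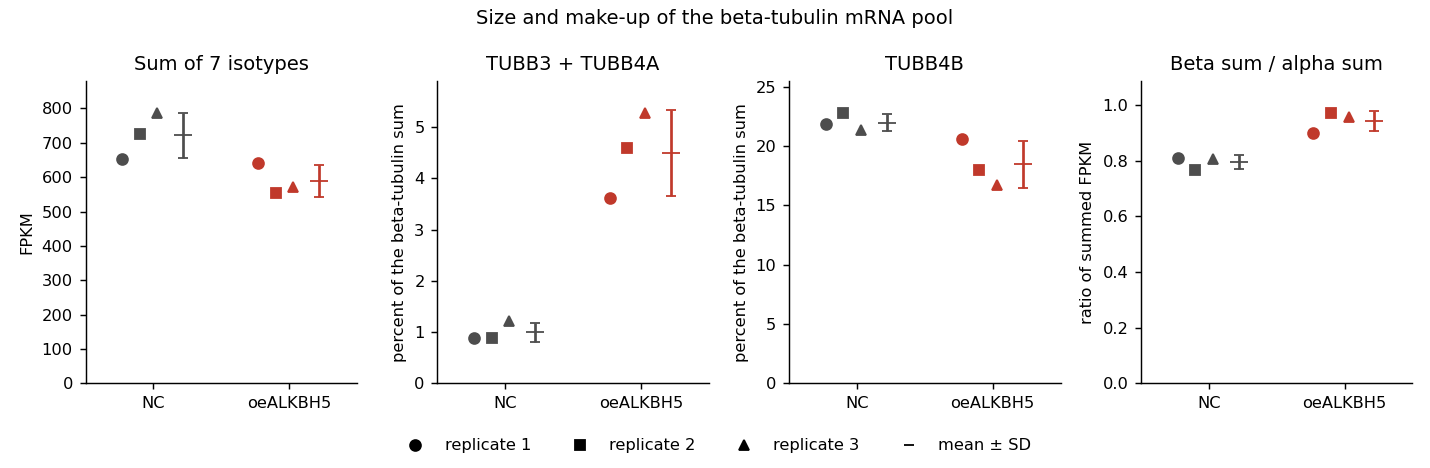
From left to right, the summed FPKM of the 7 isotypes, the share of TUBB3 plus TUBB4A and the share of TUBB4B in that sum (percent), and the ratio of the beta sum to the sum of 9 alpha-tubulin genes, each on a linear axis from 0; points are the 6 input libraries by group and replicate, bars the mean ± SD of 3. The groups do not overlap in any of the 4 panels; the joint share of TUBB3 and TUBB4A lies at 0.887 to 1.21% in NC and at 3.61 to 5.27% in oeALKBH5.

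The order of the isotypes differed below the leading pair. TUBB stood first and TUBB4B the next in both groups, and neither overlapped its neighbour in the order. In NC the following 4 were TUBB6, TUBB2A, TUBB4A and TUBB3, with means of 10.7, 5.32, 3.89 and 3.37 FPKM, and neighbours within these 4 overlapped. In oeALKBH5 TUBB4A and TUBB3 came directly after TUBB4B, ahead of TUBB6 at 11.5 ± 3.55 FPKM; these 3 overlapped one another, and TUBB2A at 4.04 ± 0.814 FPKM lay below them without overlap. TUBB2B was the lowest in both groups. Of the remaining beta-tubulin genes, the platelet isotype TUBB1 was at most 0.204 FPKM in any library, and TUBB8B had 2.06 ± 1.00 FPKM in NC and 2.87 ± 2.78 FPKM in oeALKBH5 (log2 difference 0.02, limma adjusted p = 0.988).

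In RefSeq, TUBB3 directly follows MC1R, the melanocortin receptor gene, and transcripts that run from one into the other are known, so the split of their reads bears on the TUBB3 value. MC1R had 5.18, 6.91 and 6.47 FPKM in NC and 3.65, 2.87 and 2.75 FPKM in oeALKBH5, opposite in direction to TUBB3 and without overlap, though not called (log2 difference -0.81, limma adjusted p = 0.0850). The sum of TUBB3 and MC1R was 8.52, 8.46 and 11.7 FPKM in NC and 15.3, 14.3 and 15.1 FPKM in oeALKBH5. The sum was still higher in every oeALKBH5 library, at 1.56 times the NC mean, but fitted as 1 row it gave a log2 difference of 0.60 that was not called (limma adjusted p = 0.0977). In each library 200 to 228 genes of the table had a vanishingly small value above 0, taken as a failed split of shared reads. Neither TUBB3 nor MC1R had such a value, but a row without a symbol, possibly a joint transcript of both, did. That row could not be named, was not analysed here and is not part of the sum of TUBB3 and MC1R. This sum was chosen after the values were seen, and the part of the read split in the TUBB3 result was not tested further.

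Because TUBB3 and TUBB4A are neuronal genes, neuronal and neuroendocrine markers were set beside them. Of 10 neuronal markers in the table, 6 were listed at 0 in every library, among them RBFOX3, STMN2 and SNAP25, and 9 had a mean under 1 FPKM; the sums of 7.65 to 12.1 FPKM in NC and 7.24 to 8.31 FPKM in oeALKBH5 were mostly MAP2, which was not called (limma adjusted p = 0.324). Of 10 neuroendocrine markers, CHGA, CHGB, INSM1 and NEUROD1 were listed at 0 in every library and 8 had a mean under 1 FPKM. Their sums were 8.45 to 12.4 FPKM in NC and 37.5 to 42.1 FPKM in oeALKBH5, and the difference lay in ENO2, the neuronal enolase, which rose from 5.18 ± 4.58 to 37.5 ± 2.52 FPKM (log2 difference 2.88, limma adjusted p = 0.00709, and 0.0504 with no filter on low values). SCG2, a secretory granule protein, had 4.69 ± 3.82 FPKM in NC and 1.37 ± 0.517 FPKM in oeALKBH5, overlapped between the groups and was not called. MAP2 was lower in every oeALKBH5 library, with 7.65 to 11.8 FPKM in NC and 7.06 to 7.52 FPKM in oeALKBH5. SYP was lower without overlap too, with 0.826 ± 0.117 FPKM in NC and 0.335 ± 0.138 FPKM in oeALKBH5, and was not called (limma adjusted p = 0.434). Among the tested markers of both lists, only ENO2 had a positive log2 difference. MAP2, ENO2 and SCG2 were present in the oeALKBH5 libraries, and the other markers of both lists averaged under 1 FPKM over the 6 libraries. Fibroblast markers summed to 4.05 to 13.1 FPKM in NC and 4.23 to 28.5 FPKM in oeALKBH5, with 7 of 8 under a mean of 1 FPKM, and immune markers to 0.521 to 2.80 and 3.49 to 7.85 FPKM, with 6 of 8 under 1 FPKM. Their part in the isotype values was not tested.

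Among the partners of beta-tubulin in the dimer, the alpha-tubulins TUBA1B and TUBA4A fell and the others tested were not called. Of 11 tested tubulins outside the beta family, none was called higher and 3 were called lower, against 3.02% and 2.43% of all tested genes. The median log2 difference of the 11 was -0.26, against 0.02 over all tested genes. The major alpha-tubulin TUBA1B fell by 0.58 on the log2 scale, from 572 ± 59.6 to 382 ± 46.0 FPKM (limma adjusted p = 0.0156), and TUBA4A fell by 0.61, from 73.8 ± 9.09 to 48.1 ± 6.87 FPKM (limma adjusted p = 0.0387). TUBG1, the gamma-tubulin that nucleates microtubules, fell by 0.69, from 54.1 ± 8.74 to 33.0 ± 3.87 FPKM (limma adjusted p = 0.0331). TUBA1C had a log2 difference of -0.44 and was not called (limma adjusted p = 0.0628). TUBA1A, an alpha isotype abundant in neurons, had 3.94 ± 1.18 FPKM in NC and 8.76 ± 1.98 FPKM in oeALKBH5, a log2 difference of 0.99 that was not called either (limma adjusted p = 0.0677). None of the 3 calls held with no filter on low values (limma adjusted p from 0.0718 to 0.0869) or without the intensity trend (0.0937 to 0.111), and the replicate block ended those of TUBA1B (0.0617) and TUBA4A (0.0731). With 1 library left out, TUBA1B lost its call without NC replicate 2 or 3 or oeALKBH5 replicate 2 or 3 (limma adjusted p from 0.0544 to 0.0799), TUBG1 without NC replicate 1 or 3 or oeALKBH5 replicate 2 or 3 (0.0904 to 0.111), and TUBA4A without any of the libraries except oeALKBH5 replicate 1 (0.0774 to 0.143).

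The 9 alpha-tubulin genes together had 909 ± 89.0 FPKM in NC and 626 ± 76.2 FPKM in oeALKBH5, a ratio of 0.689, lower than the ratio of 0.816 for the beta-tubulins. The beta sum over the alpha sum was 0.810, 0.767 and 0.807 in NC and 0.901, 0.969 and 0.957 in oeALKBH5. Every oeALKBH5 library thus held more beta-tubulin per alpha-tubulin mRNA than any NC library, with means of 0.794 ± 0.0243 and 0.942 ± 0.0367.

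New beta-tubulin is folded by the ring-shaped chaperonin CCT, helped by prefoldin, and joined to alpha-tubulin by the tubulin cofactors. Of 21 tested genes of this folding route, 5 were called lower and none higher, against 2.43% and 3.02% of all tested genes. The median log2 difference of the 21 was -0.13. All 5 encode CCT subunits. CCT6A fell by 0.57, from 275 ± 6.91 to 186 ± 15.6 FPKM (limma adjusted p = 0.00598), CCT5 by 0.46 (0.0115), CCT3 by 0.43 (0.0175), CCT2 by 0.41 (0.0104) and TCP1 by 0.36 (0.0274). CCT6A and CCT2 kept the call in each fit that left out 1 library. CCT5 lost it without NC replicate 3 or oeALKBH5 replicate 3 (limma adjusted p of 0.0619 and 0.0502), CCT3 without any NC replicate or oeALKBH5 replicate 3 (0.0509 to 0.0692), and TCP1 without NC replicate 2 or 3 or any oeALKBH5 replicate (0.0528 to 0.120). Without the intensity trend none of the 5 was called (limma adjusted p from 0.0737 to 0.172). TCP1 also lost its call with no filter on low values (limma adjusted p = 0.0568), quantile normalization (0.0724) and the replicate block (0.0686), and CCT3 with quantile normalization (0.0568).

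Cells also sense free tubulin and degrade tubulin mRNA while it is being translated: TTC5 recognises the nascent start of tubulin, and SCAPER links it to the CCR4-NOT deadenylase. Of 12 tested genes of this route, 1 was called higher and none lower, against 3.02% and 2.43% of all tested genes. SCAPER rose by 0.98 on the log2 scale, from 12.8 ± 1.94 to 26.2 ± 3.41 FPKM (limma adjusted p = 0.0147), while TTC5 had 10.7 ± 1.62 FPKM in NC and 7.81 ± 1.05 FPKM in oeALKBH5 and was not called (limma adjusted p = 0.279). The SCAPER call was lost without NC replicate 2 or 3 or oeALKBH5 replicate 2 or 3 (limma adjusted p from 0.0511 to 0.0659) and with the replicate block (0.0562).

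Enzymes that edit the tubulin tails add or remove tyrosine and glutamate. The list used here also holds ATAT1, HDAC6 and SIRT2, which act on acetylation instead. Of 24 tested genes of this list, 2 were called higher and none lower, against 3.02% and 2.43% of all tested genes. The median log2 difference of the 24 was 0.07. VASH1, which removes the terminal tyrosine of alpha-tubulin, had 0.518, 1.35 and 0.265 FPKM in NC and 4.23, 5.49 and 3.36 FPKM in oeALKBH5 (log2 difference 1.68, limma adjusted p = 0.0246). AGBL3, a deglutamylase, rose by 1.23 on the log2 scale, from 2.01 ± 0.368 to 6.20 ± 1.89 FPKM (limma adjusted p = 0.0427). The glutamate and glycine ligase family member TTLL3 had a log2 difference of 1.19 and TPGS1, a subunit of the polyglutamylase complex, one of -1.16, neither called (limma adjusted p of 0.0990 and 0.101). VASH1 lost its call without any of the libraries except NC replicate 2 (limma adjusted p from 0.0551 to 0.0953), and AGBL3 without any except oeALKBH5 replicate 1 (0.105 to 0.131). With no filter on low values neither was called (limma adjusted p of 0.0541 for VASH1 and 0.0838 for AGBL3), and AGBL3 also lost its call with quantile normalization (0.0670), without the intensity trend (0.0553) and with the replicate block (0.0897).

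**Figure D3:**
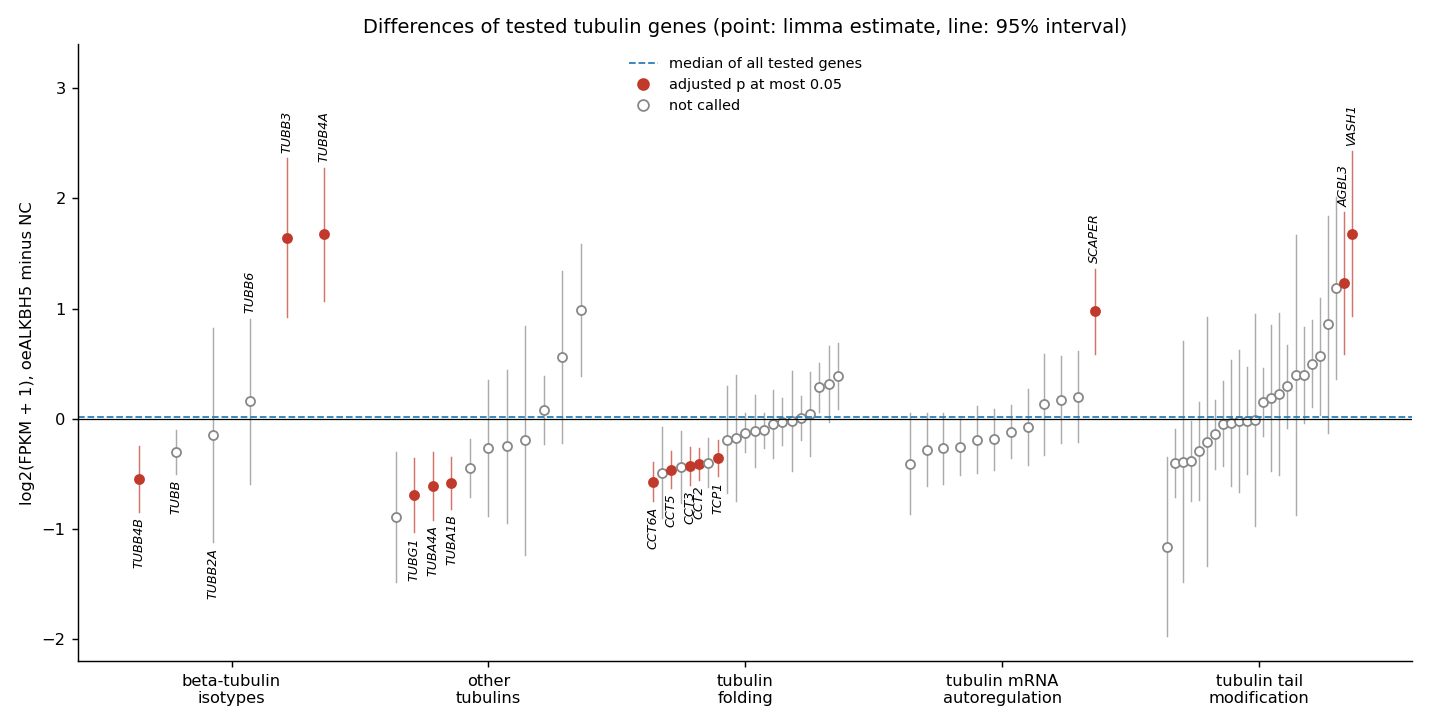
Difference in log2(FPKM + 1) between oeALKBH5 and NC (vertical axis) for every tested beta-tubulin isotype and for the tested genes of 4 related lists, ordered by size within each; points are limma estimates, lines 95% intervals, red marks an adjusted p of at most 0.05 and the dashed line the median of all tested genes. TUBB3 and TUBB4A stand at 1.64 and 1.67, and the called tubulins and chaperonin subunits lie between -0.69 and -0.36.

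Across the 6 input libraries, which fall into 2 groups, genes averaging 10 FPKM or more were ranked by Pearson correlation of log2(FPKM + 1) with each isotype, as a description. Most like TUBB3 were BCKDK (0.994), PPP1R3B (0.990) and STC2 (0.989), and most like TUBB4A were ZNF395 (0.998), FAM111A (0.997) and ZNF766 (0.993). The leading genes differed between these isotypes although both rose. Most like TUBB4B were CENPX, KIFC1 and WRAP53 (each 0.996), and most like TUBB were TRAF7 (0.993), QTRT1 (0.992) and GTPBP8 (0.990). TUBB2A was most like LPP (0.993), BTG3 (0.977) and VKORC1 (0.974), and TUBB6 most like LLGL2 (0.990), CCNG1 (0.989) and IDH3A (0.971). These are the 3 highest values of each isotype among 7797 or 7798 genes, over only 6 points that share the split into groups.

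**Figure D4:**
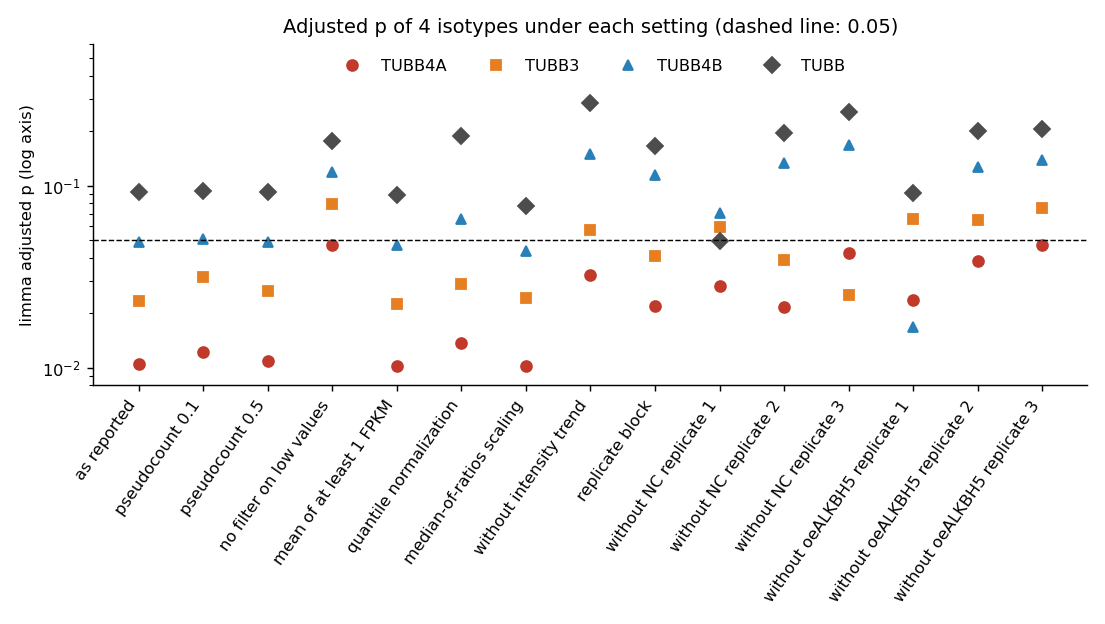
Limma adjusted p (vertical log axis) of TUBB4A, TUBB3, TUBB4B and TUBB in the fit as reported and in 14 alternatives (horizontal axis); the dashed line is the threshold of 0.05. TUBB4A stays under the line throughout (at most 0.0472), TUBB3 and TUBB4B cross it in several fits, and TUBB reaches it only without NC replicate 1 (0.0495).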

How the data were processed

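Total RNA of C4-2 cells was measured in 12 samples, and the 6 input libraries are used here. Gene values are FPKM as the authors deposited them; the unit is not written in the table and follows from the values and from the tools in the submitters' processing notes (cutadapt 1.9.3, HISAT2 2.0.4, Cuffdiff and Cufflinks, build hg19). Tools of this kind can divide reads between overlapping genes and close copies by a model, which touches TUBB2A, TUBB2B, TUBB3, TUBB4B and TUBB6. Whether such a split also touches the alpha-tubulin values was not tested. The table holds no counts, so depth is unknown. Of 20308 genes, 19434 had a symbol in the gene name table, and TUBB8 was not analysed here. Gene identifiers were matched to current symbols.

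The 12757 genes averaging 0.5 FPKM or more were tested. R 4.3.3 with limma 3.58.1 compared oeALKBH5 with NC on log2(FPKM + 1), using an intensity trend for the variance and Benjamini-Hochberg adjustment over all of them and a threshold of 0.05. Sums and shares of isotypes carry no test. In 5 libraries relative depth rested on the commonest step ratio of 77 to 118 of 498 to 554 low genes. The members and the gene lists (other tubulins, folding, mRNA autoregulation, tail modification, cell type markers; 131 of 135 symbols in the table) were chosen with earlier results of these data known. Genes were named by rule: all isotypes; in each list the 4 with the smallest adjusted p and called ones up to 6, of which some are left out here; the 3 most correlated genes of each isotype; ALKBH5, TUBB1 and TUBB8B. MC1R and AFG3L2 were chosen after their values were seen, and TUBA1A and TUBA3D were named outside this rule. The script was tested on simulated data with known answers. Promoters are RefSeq windows of GRCh38.p14, found with Python 3.11.15 and pandas 2.3.3; figures used matplotlib 3.10.9. The m6A peak lists were not analysed here, since placing them on genes needs an hg19 annotation.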

Additional observations from a re-analysis of the deposited data

How the results depend on the processing

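The 16 alternatives changed the pseudocount, the filter, the scaling, the variance model, the replicate block, the libraries used or the treatment of shared reads; summing TUBB3 with MC1R was added after seeing the data. Of the 3 isotypes called, 1 was called with no filter on low values and 1 without the intensity trend, 2 with the replicate block and 1 to 2 when 1 library was left out. Over the whole table, 695 genes were called in the reported fit, 421 with no filter, 270 without the trend, 344 with the replicate block and 232 to 436 when 1 library was left out; the cause was not tested, beyond the fewer samples in the last. TUBB4A was called throughout. TUBB3 lost its call in 7 of 15 alternatives and TUBB4B in 10 of 14, and none of the called isotypes turned in sign. Deviations of same-numbered libraries correlated at -0.017, -0.021 and 0.032 for replicates 1, 2 and 3, and those of differently numbered libraries at -0.033 to 0.046. The values thus showed no sign of pairing by replicate number, but they cannot tell whether same-numbered libraries were made together. With the replicate block the limma adjusted p was 0.0413 for TUBB3 and 0.114 for TUBB4B. The difference in summed beta-tubulin, 132.9 FPKM, was 100.8 to 166 FPKM with 1 library left out, and that in the joint share of TUBB3 and TUBB4A, 3.50 points, was 3.11 to 3.94. No setting moved the median of all genes by 0.1 on the log2 scale. Without counts, the precision of the low isotypes TUBB2B, TUBB2A, TUBB3 and TUBB4A cannot be given from depth.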

Other observations

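Outside the tubulin genes, the luminal cytokeratin KRT8 was the 1 member of the 11 luminal markers that was called, against 5.45% of all tested genes. KRT8 rose by 0.70 on the log2(FPKM + 1) scale, from 137 ± 8.44 to 223 ± 13.2 FPKM (n = 3 per group, limma adjusted p = 0.00242). NC replicate 1 had the highest level of both TUBB2A (9.51 FPKM) and TUBB6 (17.0 FPKM) among the 6 input libraries and the lowest level of TUBB (478 FPKM) and TUBB4B (143 FPKM) among the NC libraries. In oeALKBH5, replicate 1 had the highest level of TUBB (472 FPKM) and TUBB4B (132 FPKM) and the lowest of TUBB4A (11.5 FPKM), so in both groups replicate 1 lay nearest to the other group for TUBB and TUBB4B.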
